A study of Mus musculus with 12 samples.

Results

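The 9 genes described here were the matrix metalloproteinases Mmp2, Mmp3, Mmp11, Mmp14, Mmp19 and Mmp23 and the tissue inhibitors of metalloproteinases Timp1, Timp2 and Timp3. They were chosen by name, with earlier results of these data known. Each was found under its symbol in the gene list of the deposited matrices, which held 27998 genes in every library. Their transcripts were followed across 12 single-cell libraries of mouse mammary gland, in 4 fibroblast subsets, in the other gated cell types and over the hormone groups.

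Matrix metalloproteinases (MMPs) are zinc-dependent endopeptidases that cut collagens, proteoglycans and other matrix and cell-surface proteins. Most are made as inactive precursors, and TIMPs block the active enzymes by binding the catalytic site. In the mammary gland, stromal MMPs and TIMPs take part in duct growth and branching and in the tissue loss of involution.

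All mice were female C57BL/6J animals of 43 weeks, and each of the 12 groups was 1 library, whose number of animals was not given in the labels. The Intact group received no VCD (4-vinylcyclohexene diepoxide, which depletes ovarian follicles). All other groups received VCD at 160 mg/kg per day for 15 days. VCD_Vehicle and VCD_Vehicle_NormEnv then received no hormone (how the latter differed was not given in the sources used here, and it was kept out of the layout below), VCD_E2 received 1 µg of estradiol (E2) per animal per day for 1 week, VCD_E2_P4 received the same E2 with 1 mg of progesterone (P4) per animal per day, and VCD_E2_ICI received E2 and 5 mg of the estrogen receptor antagonist ICI once. The flame retardant PBDE (a polybrominated diphenyl ether) was given at 0.05 mg/kg per day for 20 weeks (VCD_Low_PBDE, VCD_Low_E2, VCD_Low_E2_P4) or at 1 mg/kg per day for 1 week (VCD_High_PBDE, VCD_High_PBDE_E2, VCD_High_PBDE_E2_P4), so that dose and duration cannot be told apart. Of these groups, 9 formed a layout of 3 hormone levels (none, E2, E2 + P4) by 3 PBDE levels (none, low, high), and the values of 3 libraries below are always given in the order no, low and high PBDE.

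The libraries held between 41737881 and 109224969 unique molecular identifiers (UMIs, 1 per captured transcript), and 46257 of 58620 barcodes passed the filters. Of these, 30858 were gated as fibroblasts by collagen, Pdgfra, Dcn and Lum transcripts. They were divided by marker genes into 12637 Dpp4, 8751 Fabp4, 2885 Tnc and 2611 Gdf10 cells and 3974 cells between the gates. The gene that stood out most was Fabp4 in the Fabp4 subset and Tnc in the Tnc subset, Gdf10 ranked second behind Cyp2f2 in the Gdf10 subset, and in the Dpp4 subset Akr1c18 and 5 other genes ranked before the gate marker Pi16. None of the 9 genes was used in any gate. Among the other types, the B cell gate was led by plasma cell genes (Jchain, Mzb1), the endothelial gate by lymphatic genes (Ccl21a, Mmrn1), and the pericyte gate held endothelial genes (Flt1, Ptprb) beside Rgs5, so that these 3 labels are given as gates only. A total of 274 of 45975 distinct barcodes occurred in more than 1 library. Levels are UMIs per 1000000 UMIs of the cell type in a library (CPM), and they were compared between samples and cell types but not between genes, since only the 3′ end of a transcript was counted.

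The files paired symbols with Ensembl identifiers. Coordinates were read from the GENCODE M21 annotation, whose build, GRCm38 (mm10), is also that of the files. Mmp2 (ENSMUSG00000031740) lies at chr8:92827291-92853420 and Mmp3 (ENSMUSG00000043613) at chr9:7445822-7455975, both on the plus strand and overlapping no other gene. Mmp11 (ENSMUSG00000000901) lies at chr10:75923222-75936496 on the minus strand and overlaps Chchd10 on the opposite strand. Mmp14 (ENSMUSG00000000957, chr14:54431612-54445364, plus) and Mmp23 (ENSMUSG00000029061, chr4:155650655-155653384, minus) overlap no other gene. Mmp19 (ENSMUSG00000025355, chr10:128790910-128800824, plus) overlaps Tmem198b and Gm47093 on the opposite strand. Timp1 (ENSMUSG00000001131, chrX:20870166-20874735, plus) lies in Syn1 and Timp3 (ENSMUSG00000020044, chr10:86300372-86349506, plus) in Syn3, each on the opposite strand. Timp2 (ENSMUSG00000017466, chr11:118301069-118355740, minus) shares its strand with the overlapping Cep295nl, so a part of its UMIs could belong to that gene.

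RefSeq promoters (GRCm38.p6, from 250 bases before to 50 after a start site) were given for 7 of the 9 members, all but Mmp2 and Mmp19. Mmp3 and Mmp11 are shown as examples of members whose response to E2 differed between fibroblast subsets, and Timp1 because it rose in all of them. The response of Timp2, Mmp14 and Mmp23 also differed, and their windows are not printed. The sequences run 5′ to 3′ on the gene's strand, at chr9:7445572-7445871 (plus), chr10:75932453-75932752 (minus) and chrX:20869916-20870215 (plus), with a match to the AP-1 motif in capitals.
Mmp3: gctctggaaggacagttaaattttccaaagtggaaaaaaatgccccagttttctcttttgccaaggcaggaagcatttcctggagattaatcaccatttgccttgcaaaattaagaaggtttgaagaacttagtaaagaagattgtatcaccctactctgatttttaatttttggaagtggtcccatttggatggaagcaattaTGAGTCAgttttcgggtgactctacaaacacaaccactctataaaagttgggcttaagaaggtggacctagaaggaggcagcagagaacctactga
Mmp11: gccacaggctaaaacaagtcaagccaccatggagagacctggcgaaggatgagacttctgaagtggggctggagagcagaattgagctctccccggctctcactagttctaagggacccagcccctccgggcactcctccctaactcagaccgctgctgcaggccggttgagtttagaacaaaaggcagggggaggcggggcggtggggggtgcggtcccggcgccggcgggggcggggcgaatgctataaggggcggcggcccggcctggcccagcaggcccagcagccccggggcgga
Timp1: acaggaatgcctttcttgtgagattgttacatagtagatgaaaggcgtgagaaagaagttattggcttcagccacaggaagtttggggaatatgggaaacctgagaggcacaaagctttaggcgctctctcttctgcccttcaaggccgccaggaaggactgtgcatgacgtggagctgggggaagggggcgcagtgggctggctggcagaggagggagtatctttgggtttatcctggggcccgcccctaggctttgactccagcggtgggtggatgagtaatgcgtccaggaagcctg

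AP-1, the factor made of Fos and Jun proteins, binds TGANTCA, and an exact match was found in 1 of the 7 members, in Mmp3 at 46 bases before the start site. Variants of these letters were not searched, so a window without a match can still hold one. This motif occurred in 7.81% of all 32851 RefSeq promoters of that length. The palindromic estrogen response element GGTCANNNTGACC (0.07% of all promoters), its shorter arm GGTCA, which the palindrome contains (40.5%), and the core of the progesterone response element ACANNNTGT (6.85%) were searched on both strands, and these letters were not in the windows of the 7 members. A match is a string of letters and not a site of binding.

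Most of the 9 genes differed in level between the fibroblast subsets. In the mean of 12 libraries, the Dpp4 subset held the most Timp2, Timp3 and Mmp23 transcript and the least Mmp3, Mmp11, Mmp19 and Timp1, whereas the Tnc subset held the most Mmp3, Mmp11 and Mmp19 and the least Timp2 and Timp3. In a fit of the UMI sums of the 4 subsets with the library as a block (edgeR's quasi-likelihood test, 12 libraries, Benjamini-Hochberg adjustment, threshold 0.05), each subset was set against the mean of the other 3. The gates were set on marker genes of the same cells, and a large share of all genes differed between them.

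**Figure D1:**
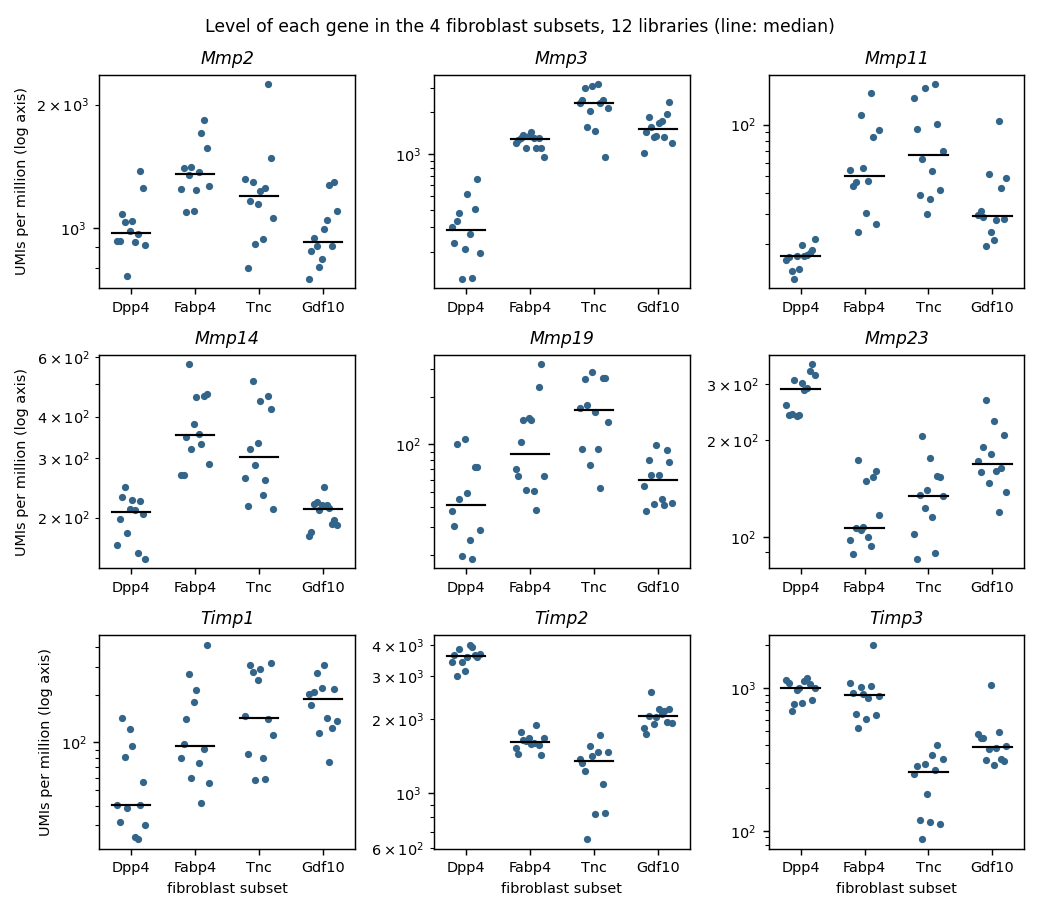
CPM (log axes) of each of the 9 genes (panels) in the 4 marker-gated fibroblast subsets, with 1 point per library and a line at the median of 12 libraries. Timp2 and Mmp23 were highest in the Dpp4 subset in 12 of 12 libraries, and Mmp3 and Mmp11 were lowest there in 12 of 12.

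Timp2, the inhibitor that also takes part in activating pro-MMP2, stood at 3576 ± 302 CPM (SD, n = 12 libraries) in the Dpp4 subset, 2062 ± 221 in the Gdf10 subset, 1624 ± 129.6 in the Fabp4 subset and 1249 ± 331 in the Tnc subset. The order Dpp4 highest and Tnc lowest held in 12 of 12 libraries. Timp3, the inhibitor that binds to the matrix, was at 969.5 ± 163 CPM in the Dpp4 and 929.6 ± 388 CPM in the Fabp4 subset, which overlapped. It was at 441 ± 206 CPM in the Gdf10 and at 230.2 ± 104 CPM in the Tnc subset, and the Tnc subset was lowest in 11 of 12 libraries. Timp1, a secreted inhibitor, was lowest in the Dpp4 subset, with 183 ± 68.2 CPM in the Gdf10, 176 ± 103 in the Tnc, 143 ± 110.3 in the Fabp4 and 60.5 ± 39.7 in the Dpp4 subset. The first 3 of these overlapped, and the Dpp4 subset was lowest in 11 of 12 libraries.

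Mmp3 (stromelysin 1, an enzyme of broad range that also activates other MMPs) showed the largest difference between subsets as a ratio of means. It stood at 2254 ± 678 CPM in the Tnc, 1572 ± 371 in the Gdf10, 1238 ± 139 in the Fabp4 and 314 ± 159 in the Dpp4 subset, and the Dpp4 value was the lowest in 12 of 12 libraries. The Tnc value was the highest in 9 of 12. In the other 3, those with E2 + P4, the Gdf10 value was the highest, at 1578, 1681 and 2381 CPM against 1575, 1466 and 951 in the Tnc subset. Mmp11 (stromelysin 3) was at 84.0 ± 51.2, 64.5 ± 39.7, 38.1 ± 23.6 and 16.8 ± 2.49 CPM in the Tnc, Fabp4, Gdf10 and Dpp4 subsets. Its highest value was in the Tnc subset in 9 of 12 libraries and in the Fabp4 subset in 3. Mmp19, an enzyme of the basement membrane, was highest in the Tnc subset in 11 of 12 libraries, at 169 ± 81.9 CPM against 119 ± 85.2 in the Fabp4, 61.8 ± 21.2 in the Gdf10 and 50.7 ± 30.7 in the Dpp4 subset.

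The gelatinase Mmp2 was the most even of the 9, with means between 981 CPM in the Gdf10 and 1383 CPM in the Fabp4 subset. Mmp14, the membrane-type enzyme that activates pro-MMP2, was highest in the Fabp4 subset in 11 of 12 libraries, at 376 ± 94.3 CPM. It was at 330 ± 104 CPM in the Tnc subset, whose range overlapped that of the Fabp4 subset. The Dpp4 and Gdf10 subsets were lower, at 200.4 ± 30.7 and 207 ± 20.3 CPM, and overlapped each other. Mmp23, an MMP without the usual hemopexin domain, was highest in the Dpp4 subset in 12 of 12 libraries, at 283 ± 38.6 CPM against 178 ± 41.0, 135 ± 35.2 and 121 ± 29.5 CPM in the Gdf10, Tnc and Fabp4 subsets.

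By the test, 3 members were higher and 6 lower in the Dpp4 subset, where 34.3% of all 12392 genes tested were higher and 35.2% lower. Mmp3 was at 0.182 times the mean of the other subsets there (log2 difference -2.46 ± 0.18 (SE), adjusted p = 5e-15), and Timp2 was 2.24-fold higher (1.16 ± 0.082, adjusted p = 1.17e-15). In the Tnc subset 5 members were higher and 3 lower, against 29.9% and 28.7% of all genes. Mmp3 was 2.61-fold, Mmp19 2.23-fold and Mmp11 2.21-fold higher there, and Timp3 was at 0.281 times the mean of the others. In the Fabp4 subset 5 were higher, led by Timp3 at 1.95-fold, and 2 were lower (Mmp23 and Timp2), against 27.7% and 29.1% of all genes. In the Gdf10 subset 3 were higher, led by Timp1 at 1.92-fold, and 3 were lower, against 25.1% in each direction.

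E2 was next compared with no hormone in each subset over the 9 libraries of the layout, with E2 and E2 + P4 averaged and PBDE level as a covariate. Timp1 and Mmp19 rose and Mmp11 fell in all gated fibroblasts, and the first 2 rose in every subset. In the median, the 9 members had a log2 fold change of 0.44 in the Tnc, 0.31 in the Dpp4, 0.24 in the Gdf10 and 0.12 in the Fabp4 subset. The medians over all genes tested, between -0.02 and 0.001, are held close to no change by the normalization. The members were chosen with earlier results of these data known, so their medians are a description and not a test of the family. The 4 subset fits used the same 9 libraries and are not independent of each other, and p-values measure only the spread between these libraries. In all gated fibroblasts 4 members rose and 1 fell, where 10.4% of 14615 genes tested rose and 8.87% fell. The counts were 5 higher and none lower in the Dpp4 subset (6.35% and 5.95% of all genes), 4 and 1 in the Fabp4 subset (10.5% and 8.07%), 5 and 3 in the Tnc subset (14.8% and 14.6%) and 3 and 1 in the Gdf10 subset (1.72% and 0.768%).

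**Figure D2:**
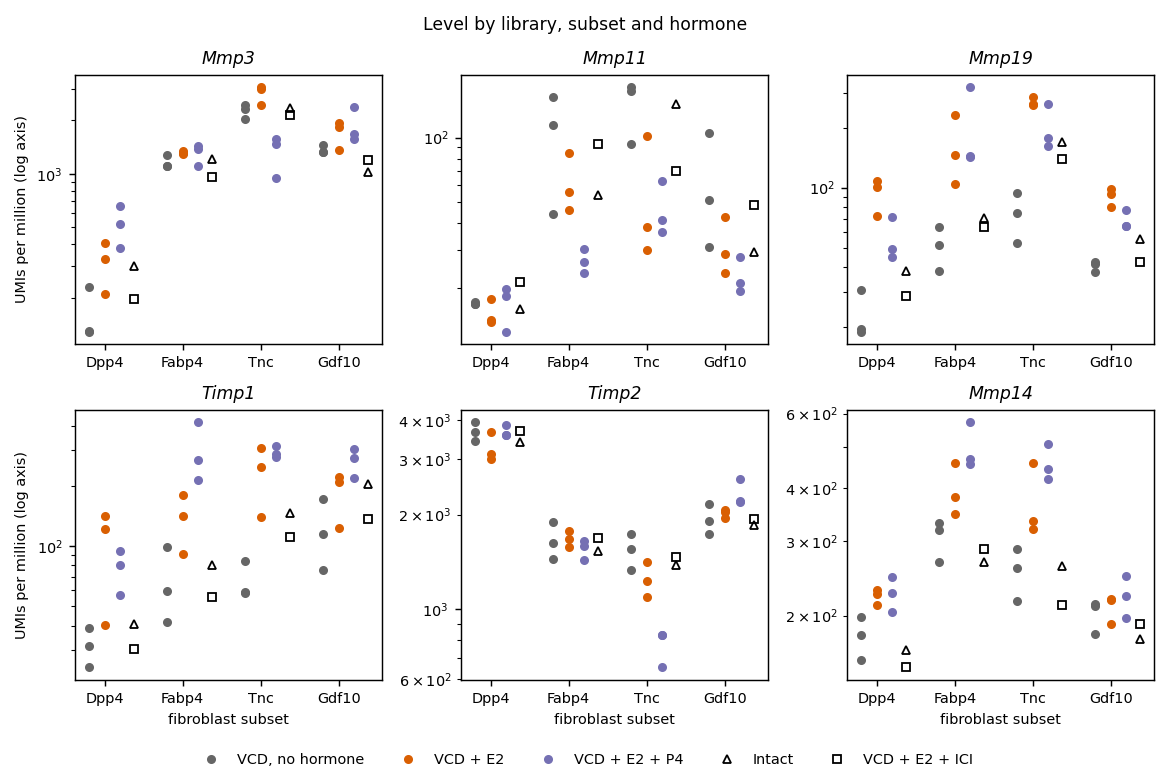
CPM (log axes) of Mmp3, Mmp11, Mmp19, Timp1, Timp2 and Mmp14 by fibroblast subset, with 1 point per library, for the 9 libraries of the layout (grey without hormone, orange with E2, violet with E2 + P4) and the Intact (triangle) and VCD_E2_ICI (square) libraries. The 6 hormone libraries lay above the 3 others for Mmp19 in every subset, and Mmp3 and Timp2 were lowest with E2 + P4 in the Tnc subset. Between 8.81% (Gdf10) and 27.9% (Tnc) of all genes above a minimum level separated these libraries in either direction.

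Timp1 in the Tnc subset stood at 84.1, 57.9 and 58.5 CPM without hormone, at 309, 248 and 139.7 with E2 and at 278, 289 and 315 with E2 + P4. The 6 hormone libraries lay above the 3 others, and the lowest of the 6 was the high PBDE library with E2. Of 7870 genes above a minimum level in this subset, 1491 likewise lay higher in the 6 libraries and 703 lower (27.9% in either direction). The log2 fold change of Timp1 was 1.90 ± 0.21 (3.72-fold, edgeR's quasi-likelihood test, Benjamini-Hochberg adjusted p = 0.000118). Timp1 in the Fabp4 subset was at 98.4, 59.6 and 41.5, then 141, 180.5 and 91.5, then 268, 213 and 414 CPM, where VCD_High_PBDE_E2 lay below VCD_Vehicle. In the Dpp4 subset it was at 31.5, 38.8 and 24.7, then 142, 121 and 40.3, then 80.7, 94.4 and 56.6 CPM, and VCD_High_PBDE_E2 was again close to the libraries without hormone. The Gdf10 subset had 172, 115 and 75.5, then 208, 222 and 123, then 276, 306 and 218 CPM, with the groups overlapping. The folds were 3.03, 2.62 and 1.97 in these 3 subsets (adjusted p = 0.00977, 0.0118 and 0.00276). The difference in Timp1's response between the subsets did not pass the test (adjusted p = 0.0879).

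Mmp19 in the Tnc subset stood at 93.9, 74.3 and 52.8 CPM without hormone, at 259, 286 and 262 with E2 and at 177, 161 and 262 with E2 + P4. All 6 hormone libraries lay above the 3 others in this subset, and the same held in the other 3. Such a separation, in either direction, was found in 27.9% of all genes above a minimum level in the Tnc subset. The shares were 18.3% in the Fabp4, 16.4% in the Dpp4 and 8.81% in the Gdf10 subset. For Mmp19 the Dpp4 subset had 30.7, 19.6 and 19.0, then 100.4, 108 and 72.3, then 44.9, 49.3 and 71.7 CPM. The Fabp4 subset had 63.3, 51.9 and 38.3, then 104, 147 and 232, then 144, 142 and 321 CPM, with its 2 highest values in the high PBDE libraries. The rise was 3.12-fold in the Dpp4, 3.09-fold in the Fabp4, 2.91-fold in the Tnc and 2.03-fold in the Gdf10 subset (edgeR's quasi-likelihood test, adjusted p = 0.00874, 0.00629, 0.000405 and 0.000585). A difference between the subsets was not detected (adjusted p = 0.208).

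Mmp11 moved the other way in 3 of the 4 subsets. In the Tnc subset it was at 93.7, 164 and 172 CPM without hormone, at 38.5, 30.0 and 101 with E2 and at 62.9, 36.5 and 41.3 with E2 + P4. The highest hormone value, of VCD_High_PBDE_E2, exceeded that of VCD_Vehicle, so the groups overlapped. Mmp11 in the Fabp4 subset was at 44.0, 115 and 154, then 46.0, 55.8 and 85.2, then 23.5, 30.5 and 26.3 CPM, and the 3 libraries with E2 + P4 were the lowest. The Gdf10 subset had 31.1, 51.3 and 105, then 28.9, 23.4 and 42.8, then 19.5, 21.1 and 28.0 CPM. Without PBDE, VCD_E2 lay close to VCD_Vehicle in both of these subsets. The log2 fold change was -1.59 ± 0.29 in the Tnc, -1.26 ± 0.20 in the Fabp4 and -1.01 ± 0.17 in the Gdf10 subset (edgeR's quasi-likelihood test, adjusted p = 0.00234, 0.00377 and 0.00749). In the Dpp4 subset it was low throughout, between 12.6 and 19.8 CPM in the 9 libraries, with a log2 fold change of -0.11 ± 0.11 (adjusted p = 0.52). The response differed between subsets (joint test of E2 by subset, adjusted p = 0.00274), and 30.7% of all 12665 genes passed that joint test.

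Mmp3 responded in the Dpp4 subset, where its level was lowest. It was at 230.4, 129 and 129 CPM without hormone, at 331, 210.3 and 408 with E2 and at 382, 521 and 662 with E2 + P4. Each PBDE level rose from none to E2 to E2 + P4, but VCD_Low_E2 lay below VCD_Vehicle. The rise was 2.45-fold (log2 1.29 ± 0.26, adjusted p = 0.0221). In the Tnc subset Mmp3 stood at 2455, 2049.8 and 2335 CPM without hormone, at 2993, 3100.0 and 2449 with E2 and at 1575, 1466 and 951 with E2 + P4. The 3 libraries with both hormones were the 3 lowest of the 12 libraries in this subset. The E2 contrast over both hormone levels did not pass the test there (-0.33 ± 0.13, adjusted p = 0.0728), nor did it in the Fabp4 (0.12 ± 0.088, adjusted p = 0.353) and Gdf10 subsets (0.44 ± 0.13, adjusted p = 0.0984). The log2 fold change in the Dpp4 subset exceeded that of the other 3 by 1.22 ± 0.20 (adjusted p = 0.000309).

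Mmp2, Mmp14 and Mmp23 rose less. Mmp14 in the Tnc subset was at 216, 287 and 259.8 CPM without hormone, at 320.0, 334 and 459.9 with E2 and at 509.7, 444 and 420.3 with E2 + P4, without overlap, and it rose 1.53-fold (adjusted p = 0.00934, edgeR's quasi-likelihood test). It rose 1.41-fold in the Fabp4 and 1.24-fold in the Dpp4 subset (adjusted p = 0.0199 and 0.0362). Mmp23 in the Tnc subset was at 85.9, 123 and 89.3, then 135, 140.2 and 156, then 206, 176 and 154 CPM, also without overlap. In that subset 27.9% of all genes above a minimum level did not overlap, in either direction. Mmp23 rose 1.53-fold in the Tnc, 1.52-fold in the Gdf10 and 1.41-fold in the Fabp4 subset (adjusted p = 0.00958, 0.00858 and 0.0235), and in the Dpp4 subset, where it was highest, its log2 fold change was 0.17 ± 0.071 (adjusted p = 0.143). Mmp2 was at 930.2, 767 and 968, then 1085, 985 and 1382, then 1039, 1043 and 1253 CPM in the Dpp4 subset. It rose 1.25-fold there and 1.36-fold in the Tnc subset (adjusted p = 0.0273 and 0.0293). In the Tnc subset it was at 801, 915 and 1255, then 1163, 1144 and 2241, then 1299, 1232 and 1482 CPM. There VCD_High_PBDE, without hormone, lay above VCD_E2, VCD_Low_E2 and VCD_Low_E2_P4, and VCD_High_PBDE_E2 was the highest.

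Timp2 and Timp3 fell in the Tnc subset. Timp2 was at 1333, 1555 and 1729 CPM without hormone, at 1231, 1416 and 1096 with E2 and at 654, 825 and 829 with E2 + P4, so that the 3 libraries with both hormones lay below the other 6. The log2 fold change was -0.73 ± 0.11 (adjusted p = 0.000997, edgeR's quasi-likelihood test), against -0.10 ± 0.082, -0.08 ± 0.10 and 0.24 ± 0.11 in the Dpp4, Fabp4 and Gdf10 subsets, none of which passed. Timp3 in the Tnc subset was at 286, 294 and 269, then 119, 180.1 and 397, then 87.8, 114 and 111 CPM. Its highest value was that of VCD_High_PBDE_E2, above all libraries without hormone, while the other 5 hormone libraries lay below them. The log2 fold change was -1.03 ± 0.23 (adjusted p = 0.00709), and the estimates in the other 3 subsets did not pass.

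**Figure D3:**
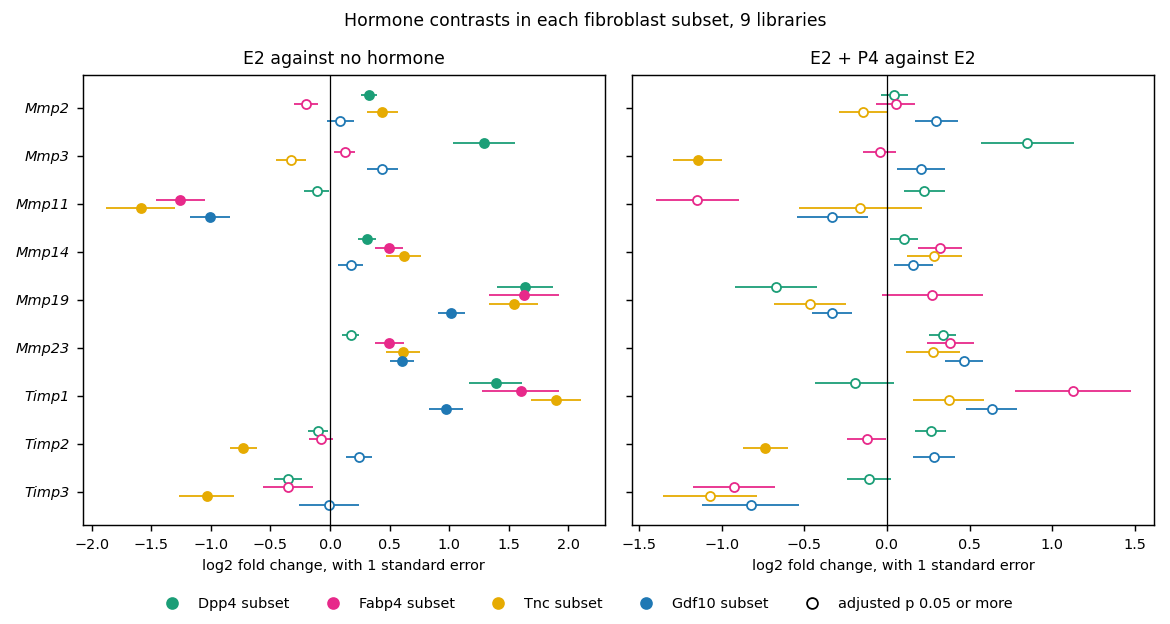
Log2 fold changes of the 9 genes (rows) for E2 against no hormone (left) and for E2 + P4 against E2 (right) in the 4 fibroblast subsets (colours), with bars of 1 standard error, from the edgeR fits over 9 libraries. Open points had an adjusted p of 0.05 or more, and Timp1 and Mmp19 lay to the right of 0 with filled points in every subset for E2.

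The E2 responses were set against each other in 1 fit of all 4 subsets. Those of Mmp2, Mmp3, Mmp11, Mmp14, Mmp23 and Timp2 differed between subsets (6 of 9 members, adjusted p between 5.25e-05 for Timp2 and 0.0397 for Mmp14). The Tnc subset stood apart from the mean of the other 3 in 5 members, against 26.3% of all genes, with log2 differences of -0.73 ± 0.097 for Timp2, -0.93 ± 0.19 for Mmp3 and -0.79 ± 0.24 for Mmp11 (adjusted p = 1.78e-05, 0.00109 and 0.019) and higher responses of Mmp2 and Mmp14. These contrasts average E2 and E2 + P4. Mmp3 in the Tnc subset was at 2280 ± 208 CPM (SD, n = 3) without hormone, 2848 ± 349 with E2 and 1331 ± 333 with E2 + P4, so that it was lower than without hormone with both hormones and not with E2 alone. With the E2 libraries alone against no hormone, 2 members passed the joint test (Mmp2, adjusted p = 0.0169, and Mmp23, 0.0421), and Timp2, Mmp3, Mmp11 and Mmp14 did not (adjusted p = 0.0931, 0.205, 0.0714 and 0.28). The share of all genes that passed with the E2 libraries alone is not given here. With both hormone levels averaged, subsets were also read singly. The Dpp4 subset stood apart in 3 members (18.3% of all genes), higher for Mmp3 and Mmp11 and lower for Mmp23. The Fabp4 subset did so in 1 (Mmp2, with a log2 difference of -0.51 ± 0.12, against 3.33% of all genes), and the Gdf10 subset in 1 (Timp2, with 0.55 ± 0.099, against 6.32%).

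With the E2 libraries alone against no hormone, Mmp19 passed in all 4 subsets, Timp1 in the Dpp4 and Tnc subsets and Mmp11 in the Tnc subset, and the other calls for E2 in the subsets were lost. Single libraries also decided a part of the calls. Without VCD_Low_PBDE no member passed in the Dpp4 subset (0 of 5), and without any one of VCD_E2, VCD_Low_E2, VCD_Low_E2_P4, VCD_High_PBDE or VCD_High_PBDE_E2_P4 between 2 and 3 did. Without VCD_Vehicle 3 members passed in the Fabp4 subset and 4 in the Tnc subset, without VCD_High_PBDE 3 passed in the Fabp4 and 2 in the Gdf10 subset, and without VCD_Low_PBDE 2 passed in the Gdf10 subset. The count in all gated fibroblasts was 3 without VCD_Vehicle, VCD_Low_E2 or VCD_High_PBDE, and the joint test called 3 members without VCD_Vehicle or VCD_Low_PBDE. The shares of all genes called in these refits are not given here, so the counts show only which calls depended on a library. Mmp19 passed whichever of the 9 libraries was left out in the Fabp4, Tnc and Gdf10 subsets, and so did Timp1 and Mmp11 in the Tnc subset.

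The deposited file names carried 2 codes, and 4 of the 9 libraries had the first and 5 the second. Those at no PBDE all had the first and those at high PBDE all the second. At low PBDE the library without hormone had the first code and those with hormone the second. Within a code the hormone libraries were set against those without hormone on the log2(CPM + 1) scale (2 against 2 in the first code and 4 against 1 in the second), with no test. Timp1 in the Tnc subset was 2.05 higher with hormone in the first and 2.00 higher in the second code, Mmp19 1.35 and 2.15 higher, and Mmp11 fell by 1.32 and by 1.87. Mmp3 in the Dpp4 subset was 1.04 and 1.68 higher. With the code as a covariate, 8 members passed in the Tnc subset and 4 in the Fabp4 subset, but 2 in the Gdf10 and 0 in the Dpp4 subset. The shares of all genes called in those fits are not given here, so these counts are not read as particular to the members.

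Other features of the libraries moved with hormone. The summed level of 13 dissociation stress genes (Fos, Jun, Atf3, Hspa1a and others, induced by tissue digestion) in the Tnc subset was 23436, 26107 and 31479 CPM without hormone, 16508, 18386 and 12978 with E2 and 9141, 9678 and 12612 with E2 + P4, and 12 of the 13 fell with E2. Of the same genes, 11 fell and 1 rose in the Fabp4 subset, in the Gdf10 subset 2 fell and in the Dpp4 subset 1. In all gated fibroblasts the sum was 18590 to 22577 CPM in the libraries without hormone (VCD_Vehicle_NormEnv included), 15766 to 17851 with E2, 12355 to 13483 with E2 + P4, 24871 in VCD_E2_ICI and 21464 in Intact. The number of Tnc-gated cells was 152 to 550 in the 3 libraries without hormone and 91 to 199 in the 6 with hormone, and whether the gate took the same cells was not tested. The summed level of the 6 macrophage markers in gated fibroblasts was 3.17 to 4.48 CPM without hormone and 4.73 to 8.64 CPM with hormone, with no marker at 0. That of the 6 dendritic markers was 6.06 to 6.76 CPM without and 7.64 to 11.3 CPM with hormone, with 0 to 3 of them at 0. The 6 adipocyte markers summed to 1.76 to 3.14 CPM in the 3 layout libraries without hormone and to 3.25 to 14.1 CPM in the 6 with hormone, but to 6.76 CPM in VCD_Vehicle_NormEnv and 7.75 CPM in Intact, with 1 to 4 at 0. The 6 endothelial markers summed to at most 1.89 CPM in any library and were also higher in the 6 hormone libraries than in those 3. The other lists of cell type markers overlapped between the 3 and the 6 libraries. The part of these features in the results was not tested.

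P4 added to E2 changed the Tnc subset. Mmp3 fell by 1.15 ± 0.15 on the log2 scale there (E2 + P4 against E2, edgeR's quasi-likelihood test, adjusted p = 0.00466) and Timp2 by 0.74 ± 0.14 (adjusted p = 0.0188), 2 of 9 members, where 2.58% of all genes fell and 1.57% rose. The Mmp3 call held under all 19 alternatives (adjusted p from 6.24e-10 to 0.0323). That of Timp2 held under 15, and it was lost without VCD_E2, VCD_E2_P4, VCD_Low_E2 or VCD_Low_E2_P4. Timp3 had a log2 fold change of -1.07 ± 0.28 (adjusted p = 0.0608). The summed stress genes above were also lowest with E2 + P4, 5 of 13 of them falling with P4 in the Tnc subset, and their part was not tested.

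No member passed for P4 in the other subsets. In the Dpp4 subset 0% of genes were called by edgeR, 1391 of 13251 genes and 4 of the members had an unadjusted p under 0.05, and DESeq2 called 120 genes and 0 members. Mmp3 there had a log2 fold change of 0.85 ± 0.28 (adjusted p = 0.393), of the opposite sign to that in the Tnc subset, and the difference between the 2 subsets was not tested. In the Fabp4 subset (1.35% of genes called, and 2493 genes and 5 members at an unadjusted p under 0.05) Mmp11 had -1.15 ± 0.25 (adjusted p = 0.0573), and DESeq2 called it. Without VCD_Vehicle or VCD_High_PBDE the edgeR test also called it. In the Gdf10 subset (0.222%, with 930 genes and 6 members unadjusted) Timp1 had 0.63 ± 0.16 (adjusted p = 0.151), the 1 member DESeq2 called there. In all gated fibroblasts (0.0479%, with 1488 genes and 3 members unadjusted) DESeq2 called 1 member, Mmp23, which had 0.36 ± 0.083 by edgeR (adjusted p = 0.276). The percentages in brackets are those of edgeR. The shares of all genes that DESeq2 called in the Fabp4 and Gdf10 subsets and in all gated fibroblasts are not given here. Its calls there are therefore not read as particular to the members.

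The Intact, VCD_Vehicle_NormEnv and VCD_E2_ICI groups were 1 library each, and their levels are given without a test. Timp1 in the Tnc subset was at 146 CPM in Intact (95% Poisson interval 136.3 to 156.7, counting error only), 80.3 in VCD_Vehicle_NormEnv and 111 in VCD_E2_ICI (99.2 to 124). The first and last lay between the libraries without hormone and the group with E2 + P4, and VCD_E2_ICI lay below the 3 libraries with E2. Mmp19 in that subset was at 170.0, 93.8 and 139 CPM, so that VCD_E2_ICI again lay below VCD_E2 and above VCD_Vehicle. In the Dpp4 subset Mmp19 was at 38.2, 25.0 and 28.7 CPM and Timp1 at 40.6, 25.5 and 30.4 CPM. For both, the Poisson intervals of VCD_E2_ICI and VCD_Vehicle (30.7 and 31.5 CPM) overlapped. Mmp19 in VCD_E2_ICI lay above VCD_Vehicle_NormEnv, VCD_Low_PBDE and VCD_High_PBDE there. The VCD_E2_ICI library had the second file-name code, and VCD_Vehicle and VCD_E2 had the first. Mmp3 in the Tnc subset was at 2342, 3189 and 2149 CPM, all above the 3 libraries with E2 + P4. Not all values of these libraries lay with their hormone group in the layout. Mmp11 in VCD_Vehicle_NormEnv, without hormone, was at 53.7 CPM in the Tnc, 46.8 in the Fabp4 and 27.5 in the Gdf10 subset, each within the range of the 6 hormone libraries. Mmp3 in the Dpp4 subset was at 270.0 CPM in VCD_Vehicle_NormEnv and 299.7 CPM in Intact, both above VCD_Low_E2.

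The shares of cells with a UMI were compared for Timp1 and Mmp3. Each cell was thinned to 3000 UMIs, which left out 43 of 2885 Tnc and 395 of 12637 Dpp4 cells below that depth. Timp1 was then detected in 18.02, 16.3 and 13.3% of Tnc cells without hormone, in 45.5, 42.3 and 30.1% with E2 and in 43.6, 43.9 and 41.1% with E2 + P4. Cells with a Timp1 UMI held 1.18, 1.10 and 1.2 of them on average without hormone and 1.66, 1.71 and 1.92 with E2 + P4. Before thinning, 58.6% of all Tnc cells had a Timp1 UMI at a median depth of 11733 UMIs. For comparison, T cells had a Timp1 UMI in 3.44% of cells at a median of 5906 UMIs and in 1.41% after thinning. They cannot be taken as a blank for Timp1, which stood at 6.72 CPM in them against 1.26 CPM computed for free RNA from Col1a1, and above it in 10 of 12 libraries. That computed level can be too low, since the gate of these cells limited Col1a1. Mmp3 was detected in 27.2, 14.6 and 12.9% of Dpp4 cells without hormone, in 31.5, 24.2 and 34.8% with E2 and in 38.6, 49.4 and 46.9% with E2 + P4, against 5.25% of T cells. In Tnc cells it was detected in 81.1, 75.4 and 83.3% without hormone, in 85.1, 89.7 and 73.0% with E2 and in 46.5, 67.5 and 66.7% with E2 + P4. The share of Dpp4 cells with Mmp3 before thinning was 55.4%, at a median depth of 18706 UMIs.

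PBDE called no member. For low PBDE in all gated fibroblasts 0% of genes passed (537 of 14615 genes and 1 member, Mmp11, at an unadjusted p under 0.05, with 7 genes and 0 members called by DESeq2). For high PBDE 0.369% of genes and 0 of 9 members passed, and 5 members had an unadjusted p under 0.05. The layout libraries at no PBDE all had the first file-name code and those at high PBDE the second. High against no PBDE can therefore not be told apart from the code. For high PBDE, Mmp11 had a log2 fold change of 0.77 ± 0.18 (adjusted p = 0.0771) and Timp1 of -0.77 ± 0.22 (adjusted p = 0.111) by edgeR. DESeq2 called these 2 members, and its share over all genes is not given here. Without hormone the level of Mmp11 in all gated fibroblasts was 39.5, 66.4 and 83.3 CPM at no, low and high PBDE. With E2 it was 26.9, 31.1 and 55.7 CPM and with E2 + P4 19.8, 24.6 and 24.1 CPM, where the 3 PBDE levels lay close together.

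In the 5 immune gates tested the 9 genes were lower than in fibroblasts, with 1 exception. Types with at least 20 cells in 6 or more libraries were compared with the gated fibroblasts of the same library on the log2(CPM + 1) scale (exact sign-flip permutation test, two-sided, 45 tests). In macrophages, dendritic, T, natural killer and B-gated cells, all members but Mmp19 in macrophages were lower than in fibroblasts in every library, with mean log2 differences from -2.13 (Timp2 in macrophages) to -6.90 (Mmp14 in dendritic cells). Their p was 0.000488 with 12 libraries, 0.000977 with 11 and 0.0312 with 6 (adjusted p at most 0.0319), the smallest these tests could give. The value of Mmp14 in dendritic cells rests on few UMIs, at 1.685 CPM against 1.79 CPM computed for free RNA. Mmp19 in macrophages was at 129 ± 101 CPM (SD, n = 12) against 86.7 ± 46.8 in fibroblasts of the same libraries, higher in 8 of 12 (p = 0.202, exact permutation test). Its highest macrophage value was 422 CPM in VCD_E2_ICI, from 73 cells, and the other 11 libraries lay between 47.6 and 184 CPM.

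**Figure D4:**
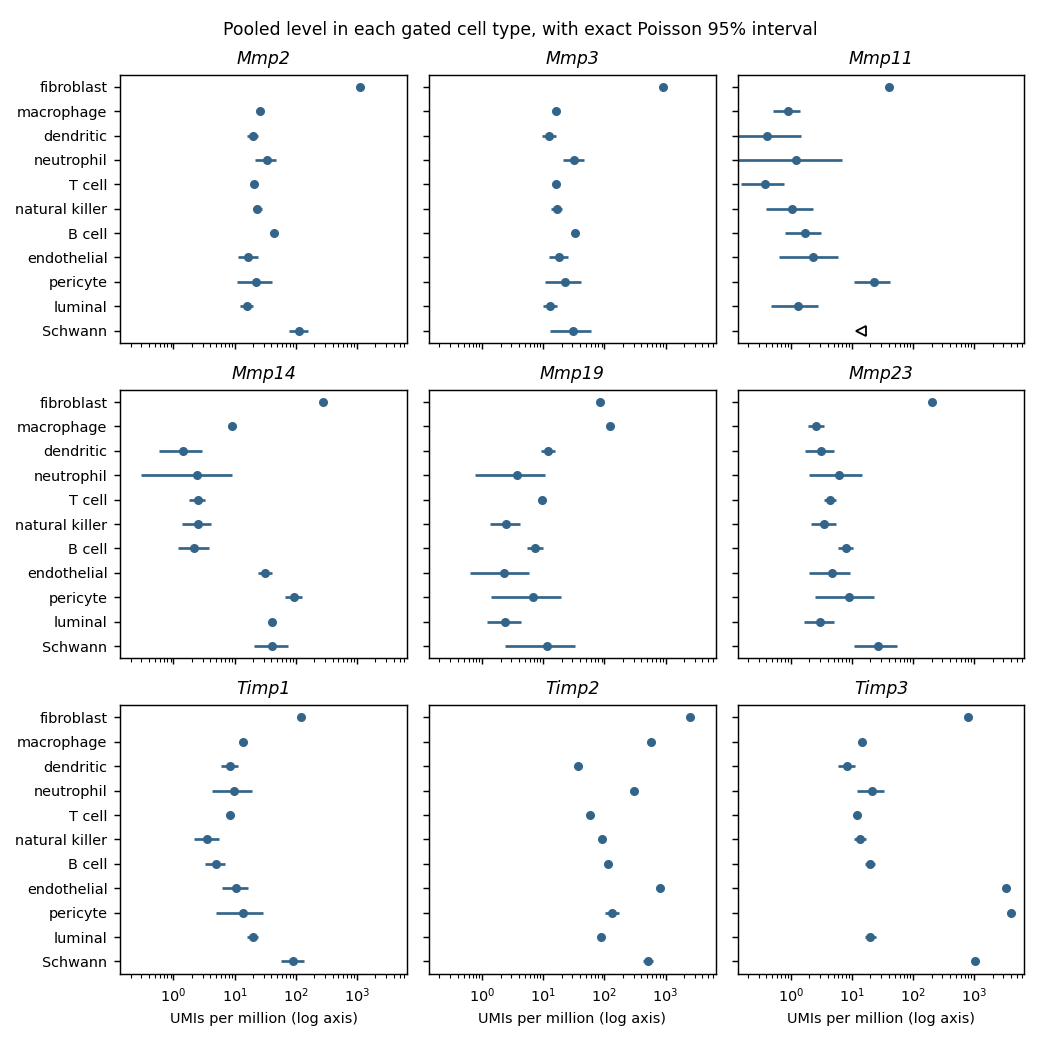
CPM (log axes) of the 9 genes (panels) pooled over libraries in each gated cell type, with the exact Poisson 95% interval as a bar, which covers counting error only, and a triangle where no UMI was found. Mmp19 in macrophages lay beside its fibroblast level, and Timp3 lay above it in the endothelial, pericyte and Schwann gates.

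Droplets also hold free RNA from broken cells, and the level it could give was computed from Col1a1 in the same droplets. The other cell types were gated with fewer than 50 fibroblast marker UMIs per 10000, Col1a1 among them. The computed level can therefore be too low, and a value above it does not settle where the RNA came from. Timp2 in macrophages was at 585 ± 101 CPM against 24.0 CPM from free RNA, and Mmp19 at 129 against 0.789 CPM. In T cells Mmp3 was at 14.8 against 9.99 CPM and Mmp14 at 2.23 against 2.94 CPM. Other members were further above it there, with Timp2 at 60.4 against 27.5 CPM, Mmp19 at 7.58 against 0.889 CPM (both above it in 12 of 12 libraries) and Timp1 at 6.72 against 1.26 CPM (10 of 12). Timp3 was high in cell types too few to test by library. Pooled over libraries it was at 3336 CPM (95% Poisson interval 3250.4 to 3424, counting error only) in 108 endothelial-gated cells of mostly lymphatic genes and at 4044 CPM (3858 to 4235) in 52 pericyte-gated cells, against 804 CPM in all fibroblasts. In the endothelial-gated cells Timp2 was at 822 CPM.

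E2 was also tested in the 2 immune types with enough cells in all 9 libraries. In macrophages 7 members could be tested (all but Mmp11 and Mmp23), 0 passed, and edgeR called 0% of 9151 genes (942 genes and 0 members at an unadjusted p under 0.05; DESeq2 was not run here). Mmp19 had a log2 fold change of -0.29 ± 0.26, from 57.9, 127 and 157 CPM without hormone to 118, 184 and 94.2 with E2 and 81.7, 68.3 and 47.6 with E2 + P4. Timp1 had -0.28 ± 0.62. In T cells 6 members could be tested, 0 passed, and 0% of 8992 genes were called (402 genes and 0 members at an unadjusted p under 0.05). Whether the response of Mmp19 or Timp1 differed between fibroblasts and macrophages was not tested.

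The wider family was followed with 4 lists of genes. Of 18 further genes of the family (other MMPs and Timp4), 4 passed the filter on low counts in the Tnc subset. Genes near 0 without hormone could pass it only through the hormone libraries, so no count or median over these 4 is given. Mmp16, a membrane-type MMP, rose from 10.1 ± 0.43 CPM (SD, n = 3) without hormone to 33.9 ± 1.05 with E2 and 54.8 ± 12.3 with E2 + P4 (log2 1.99 ± 0.16, adjusted p = 1.5e-05). Mmp15, another membrane-type MMP, had 0 UMIs in all 3 libraries without hormone. It was at 3.06 ± 0.41 CPM with E2 and at 12.1 ± 4.30 CPM with E2 + P4. Mmp17 was at 1.63, 4.46 and 8.54 CPM in the 3 hormone groups. The tests and folds of Mmp15 and Mmp17 are not read, for the reason given above. Mmp27 fell from 20.4 ± 2.81 to 12.02 ± 3.93 and 7.37 ± 3.97 CPM. Between E2 and E2 + P4, Mmp16 also rose in the test (log2 0.63 ± 0.15, adjusted p = 0.0397). In the other subsets 3, 6 and 1 of the 18 could be tested (Dpp4, Fabp4 and Gdf10). Mmp27 rose in the Dpp4 subset (log2 0.78 ± 0.15) and fell by 0.77 ± 0.18 in the Gdf10 subset, and Mmp16 rose in the Fabp4 subset.

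Of 29 ADAM and ADAMTS proteases, which shed membrane proteins and cut proteoglycans, 13 of 24 tested rose and 1 fell with E2 in the Tnc subset, where 14.8% of all genes rose and 14.6% fell. In the Fabp4 subset 12 of 25 rose and 1 fell (against 10.5% and 8.07% of all genes), in the Dpp4 subset 4 of 26 rose and 1 fell (against 6.35% and 5.95%) and in the Gdf10 subset 1 of 20 rose (against 1.72%). Genes of this list that were near 0 without hormone could likewise be tested only through the hormone libraries, so these counts are not read as a result about the list. Adam12 in the Tnc subset went from 21.1 ± 7.50 CPM without hormone to 66.5 ± 19.3 with E2 and 93.7 ± 13.4 with E2 + P4 (log2 1.87 ± 0.13, adjusted p = 1.09e-05). Adamts17, Adamts18 and Adamts19 were such genes, at 0.287, 0.729 and 2.87 CPM without hormone there, and their tests are not read. Adam19 rose with P4 in the Tnc subset, from 35.3 ± 6.26 to 79.9 ± 20.2 CPM (adjusted p = 0.00418).

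Of 21 activators, inhibitors and clearance receptors of these proteases, 3 of 16 tested rose and 4 fell with E2 in the Tnc subset (against 14.8% and 14.6% of all genes), 2 of 16 rose and 2 fell in the Fabp4 (10.5% and 8.07%), 3 of 17 rose and 3 fell in the Dpp4 (6.35% and 5.95%) and none of 16 passed in the Gdf10 subset (1.72% and 0.768%). These counts are a description of the list. Pcsk5 and Pcsk6 are proprotein convertases, which activate precursor proteins. Pcsk5 in the Tnc subset went from 67.2 ± 4.12 CPM to 130.9 ± 35.2 with E2 and 287.7 ± 40.3 with E2 + P4 (log2 fold change for E2 1.45 ± 0.17, adjusted p = 0.000151). Pcsk6 went from 26.4 ± 9.42 to 9.58 ± 3.25 and 9.38 ± 6.91 CPM (log2 -1.61 ± 0.25, adjusted p = 0.000892). Reck, a membrane-bound inhibitor of MMPs, fell with P4 in the Tnc subset, from 108.9 ± 17.4 to 70.1 ± 13.3 CPM (log2 -0.67 ± 0.14, adjusted p = 0.0313). Serping1, an inhibitor of serine proteases, fell there with E2 (log2 -1.47 ± 0.17) and further with P4 (-1.15 ± 0.20). Of 9 cathepsins and their inhibitors, 5 of 9 rose in the Dpp4 subset (6.35% of all genes), and 1 rose and 2 fell in each of the Fabp4 (9 tested, against 10.5% and 8.07%) and Tnc subsets (8 tested, against 14.8% and 14.6%). In the Gdf10 subset 1 of 8 rose (1.72% of all genes). Ctsh rose in all 4 subsets, by log2 0.97 ± 0.087 in the Dpp4 and 0.93 ± 0.15 in the Gdf10 subset.

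Over the 12 libraries of all gated fibroblasts, the gene most like Timp1 in its level was H2-T23 (Pearson r = 0.967 of log2(CPM + 1), among 5479 genes), followed by Bst2 (0.960) and Lman1 (0.951). Those most like Mmp19 were Rpl22l1 (0.951), Fibin (0.944) and Ptprs (0.942), those most like Mmp3 were Col27a1 (0.917) and Ctsz (0.908), and those most like Mmp14 were Fdx1l (0.959) and C1qtnf6 (0.942). Among the members, Timp1 and Mmp19 were alike (0.826), as were Mmp11 and Timp3 (0.741) and Mmp14 and Mmp23 (0.707). Timp1 and Mmp11 were opposed (-0.856). These 12 points share libraries, depth and hormone groups, and the correlations are a description.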

How the data were processed

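Single-cell RNA of 12 mammary gland libraries was measured with 3′ tag chemistry. Lymph nodes were removed, the glands were digested with collagenase and strained, and dead cells were depleted. The deposited values were raw UMI counts per gene and barcode, made by the authors with Cell Ranger 3.1.0 on mm10 (per the file headers and the submitters' processing notes), with barcodes already filtered. The sequencer is named differently in the labels and in the methods, and the meaning of the 2 file-name codes was not given in the sources used here.

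Barcodes were kept if they had 500 or more genes, 1000 or more UMIs and a mitochondrial share of no more than 5%. Fibroblasts needed 4 of 6 markers and 100 marker UMIs per 10000, and cells with transcripts of 6 genes of other lineages were left out. A subset needed 3 of its 6 markers and a score 0.1 above the next, after scaling to the 99th percentile. That scaling was chosen after the marker distributions were seen. No doublet caller was run. The members and lists were chosen with earlier results of these data known. All 9 members were named in every comparison, and from each list at most 4 genes a comparison, those with the largest change past the threshold. For likeness, the 3 genes with the highest r among those with a mean of at least 20 CPM were taken, and the text gives a part of them.

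UMIs were summed per library and cell type (at least 20 cells) and tested with edgeR 4.0.16 (TMM, filterByExpr, quasi-likelihood test) in R 4.3.3, with Benjamini-Hochberg adjustment over all genes tested. The edgeR fits were tried on simulated counts before use. These covered E2 in the Dpp4, Tnc and Gdf10 subsets, the Tnc subset contrast and the joint test of E2 by subset. The other contrasts and the permutation test were not simulated. DESeq2 1.42.0 was an alternative. Cell types were compared with scipy 1.17.1 in Python 3.11.15. The 12 libraries held 41737881 to 109224969 UMIs, and Poisson and binomial intervals (95%) cover counting error only. Replicate numbers could not pair groups, since each group was 1 library. The alternatives are given in the closing section.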

Additional observations from a re-analysis of the deposited data

Results flagged for a closer look

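The effect of E2 differed between the 4 fibroblast subsets in a joint test of 6 members (edgeR's quasi-likelihood test of the subset by E2 terms, Benjamini-Hochberg adjusted p). The adjusted p was 5.25e-05 for Timp2, which fell in the Tnc subset only among the 4 tested, and 0.000286 for Mmp3, which rose in the Dpp4 subset. It was 0.00274 for Mmp11, which fell in all subsets but Dpp4, and 0.00646 for Mmp23, which rose in all subsets but Dpp4. It was 0.00805 for Mmp2 and 0.0397 for Mmp14, and the Mmp14 result passed under 5 of 20 alternatives. With the E2 libraries alone against no hormone, Mmp2 and Mmp23 passed it and the other 4 did not. Such differences were common, since 30.7% of all genes tested passed the joint test with E2 and E2 + P4 averaged. The share with the E2 libraries alone is not given here.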

How the results depend on the processing

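No paired analysis was possible because each group was 1 library with the same replicate number, so that groups shared fewer than 2 numbers to pair by; the reported fits did hold PBDE level as a covariate. No member changed direction under an alternative where its value passed the test in the reported fit or in the alternative. Values that passed in neither did so under several alternatives. With the E2 libraries alone against no hormone, Mmp3 in the Tnc subset went from -0.33 to 0.24 on the log2 scale, Timp3 from -0.35 to 0.11 in the Fabp4 and from -0.010 to 0.40 in the Gdf10 subset, and Mmp2 from 0.087 to -0.062 in the Gdf10 subset. The number of members called for E2 was 5 in the Dpp4, 5 in the Fabp4, 8 in the Tnc and 4 in the Gdf10 subset and 5 in all gated fibroblasts. Leaving out 1 library in turn gave 0 to 5, 3 to 7, 4 to 8, 2 to 4 and 3 to 5. With the E2 libraries alone against no hormone the counts were 2, 1, 3, 1 and 3. Within the first file-name code they were 0, 0, 1, 0 and 0, and within the second they were 0 in all 5, from 4 and 5 libraries. With the code as a covariate they were 0 in the Dpp4 and 2 in the Gdf10 subset, and without the PBDE term 3 and 2. For P4, the count in the Tnc subset was 2 and became 1 to 3 with 1 library left out. In the Fabp4 subset it was 0, and became 1 with DESeq2, 3 without the filter on low counts, 1 with a stricter gate and 0 to 1 with 1 library left out. In the Gdf10 subset it was 0, and became 1 with DESeq2 and 2 without the filter, and in all gated fibroblasts it became 1 with DESeq2. High PBDE called 0 members with edgeR and 2 with DESeq2. The joint test of E2 by subset called 6 members, 3 with the code as covariate, 2 with the E2 libraries alone and 3 to 6 with 1 library left out. Other counts of members called stayed within 1.5 times the reported ones. Except where fewer libraries entered the fit, the cause of these changes was not tested. The shares of all genes called under the alternatives are not given here, so the counts are not read as particular to the members. Types under 20 cells a library were limited by the number of cells.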

Other observations

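Timp3 stood high in single libraries. In the Gdf10 subset it was at 1057 CPM in VCD_Low_E2, and the other 11 libraries lay between 290.5 and 493 CPM. In the Fabp4 subset it was at 2019 CPM in VCD_High_PBDE_E2, and the other 11 lay between 523 and 1077 CPM. Without VCD_High_PBDE_E2, the log2 fold change of Timp3 for E2 in the Fabp4 subset was -0.57 (edgeR's quasi-likelihood test, adjusted p = 0.00372), against -0.35 with all 9 libraries (adjusted p = 0.268), and the joint test of E2 by subset gave Timp3 an adjusted p of 6.82e-05, against 0.143. This library was looked at after its values were seen. In the 53 cells gated as Schwann cells, pooled over libraries, Timp3 was at 1043 CPM (95% Poisson interval 923.8 to 1174, counting error only) and Timp2 at 518 CPM.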
